A study of Mus musculus with 9 samples.

Results

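The vimentin gene Vim was followed through a ZEB1 CUT&RUN time course by the 4 consensus peaks, of 23623 in all, whose centre lies inside the gene or whose nearest protein-coding gene boundary within 50 kb is the start or end of Vim. In CUT&RUN an antibody, here against the transcription factor ZEB1, brings a nuclease to its target, and the DNA cut loose nearby is sequenced. The cells were PB3, a mouse breast cancer line labelled Er-/Pr-/Her2-, and all were grown in the same medium. There were 2 ZEB1 libraries each after 24, 48 and 72 h of eribulin at 300 nM, with the cell line label PB3_ERI, and 2 from untreated cells, with the label PB3-Parental. Eribulin is a chemotherapy drug that stops microtubules from growing. One IgG library of untreated cells served the authors as the background for peak calling. Whether the replicates are separate cultures, and whether PB3_ERI and PB3-Parental differ in anything other than the drug, the labels do not say. No expression was measured in these files, so neither the amount of vimentin nor the line's identity could be checked against marker genes. By its title the study is about inducing mesenchymal-epithelial transition by treatment, and the question put to these peaks is how the ZEB1 signal around Vim changes with time in the drug.

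Vimentin is the intermediate filament protein typical of mesenchymal cells. Carcinoma cells that pass through an epithelial-mesenchymal transition gain it while they lose epithelial keratins and E-cadherin. ZEB1 is a zinc-finger factor that drives this transition. It binds E-boxes of the form CAGGTG, is best known for repressing epithelial genes through the corepressor CtBP, and can also take part in activation together with YAP and AP-1. A ZEB1 peak beside Vim is a place of recovered signal and does not by itself say how Vim is transcribed.

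Vim lies on chromosome 2 of GRCm38, from 13574311 to 13582826, on the plus strand. The start-site peak, from 13573568 to 13574543, begins 743 bp before the annotated start and reaches 232 bp past it, so it covers the promoter. The upstream peak, 13572108 to 13572454, has its centre 2030 bp before the start and 758 bp beyond the end of the long noncoding RNA gene Gm9875. The end-flanking peak, 13583471 to 13584185, is centred 1002 bp beyond the gene's end, and the downstream peak, 13593358 to 13593879, 10.8 kb beyond it. None of the 4 centres lies inside the gene. Of 9670 genes with an assigned peak, 11.4% had 4 or more. The gene was proposed with the fall of its start-site peak at 24 h, and over the mean of the 3 times, already known from these data. The folds and adjusted p-values below therefore place each Vim peak within the fit of all peaks and are no independent evidence for a change at Vim.

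The RefSeq promoter is shown because it lies wholly inside the start-site peak. It is the plus strand from chr2:13574061-13574310, the 250 bases before the start, with capitals marking the TATA box and the CCAAT boxes (the second read on the minus strand).
Vim promoter: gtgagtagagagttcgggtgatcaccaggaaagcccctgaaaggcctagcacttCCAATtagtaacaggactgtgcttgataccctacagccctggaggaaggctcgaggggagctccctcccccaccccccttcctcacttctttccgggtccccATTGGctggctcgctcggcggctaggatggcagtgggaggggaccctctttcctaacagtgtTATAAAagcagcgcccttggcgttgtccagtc
On both strands the window held no CAGGTG, a word found in 17.3% of 32544 promoter windows of the same length, and no CANNTG, the wider E-box that includes it, found in 66.2%. The AP-1 word TGANTCA, found in 6.73%, and the GC box GGGCGG, found in 33.0%, were also absent from it. TATAAA stood 32 bases before the start and is found in 12.3% of the windows. CCAAT, found in 33.8%, occurred at 2 places, 196 and 94 bases before the start. These are matches of letters in 250 bases and cover neither the rest of the 976 bp peak nor the other 3 peaks, whose sequence was not used here.

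**Figure D1:**
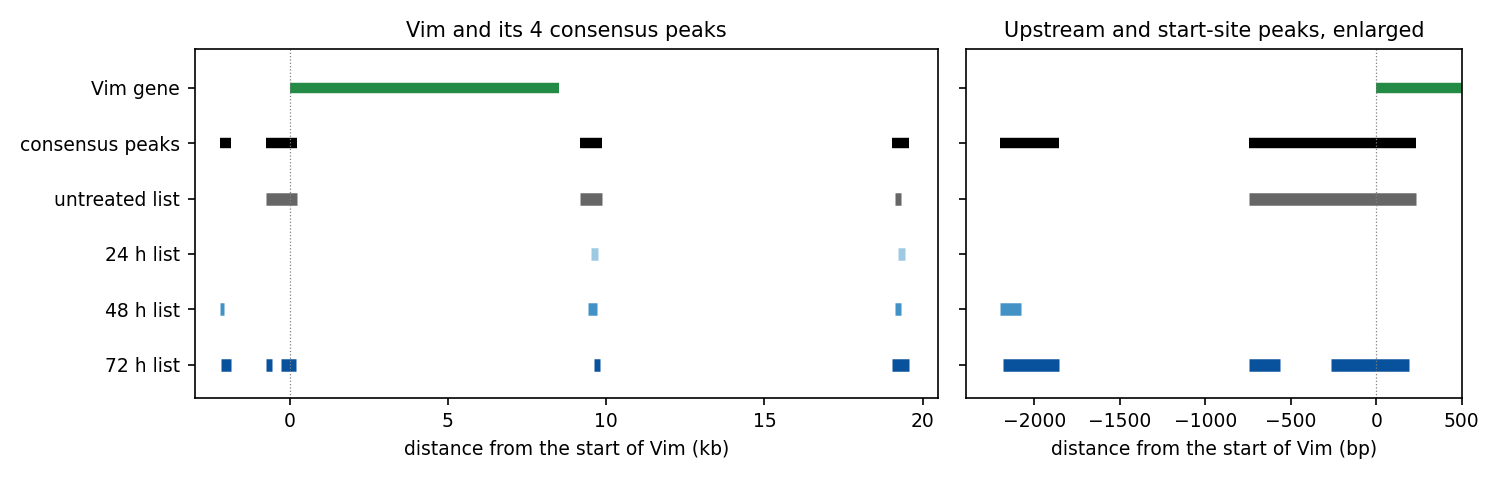
Position of Vim, its 4 consensus peaks and the peaks of each deposited list that overlap them, by distance from the annotated start of Vim (kb on the left, bp on the right). The start-site peak is in the untreated list as 1 peak and in the 72 h list as 2 shorter pieces, and is missing from the 24 h and 48 h lists.

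The 4 peaks were chosen by the authors' peak calls, since a region is in the count table only where a list holds it, so the lists are given as a description. The authors' lists, 1 per group, give each peak's fold over the IgG library. The start-site peak was called in untreated cells at 11.6-fold over IgG, above 84.5% of that list, was not in the lists of 24 and 48 h, and was back at 72 h as a 182 bp piece at 5.80-fold and a 457 bp piece at 6.82-fold. The longer of these pieces, 13574047 to 13574503, spans the start of Vim. The end-flanking peak was in all 4 lists, at 10.7-fold in untreated cells and after 24, 48 and 72 h of drug it stood at 5.02-fold, 6.66-fold and 4.81-fold. It was also widest in the untreated list, at 715 bp, against 215, 272 and 175 bp at the 3 times.

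The remaining pair of peaks was called most strongly at 72 h. The downstream peak stood at 5.19-fold over IgG in untreated cells, then at 7.07-fold, 7.38-fold and 9.62-fold at 24, 48 and 72 h, where it was also widest, with 522 bp. The upstream peak was in neither the untreated nor the 24 h list and was called at 5.51-fold at 48 h and at 7.48-fold at 72 h. The counted regions thus take their outline from the group with the widest call: untreated cells for the start-site and end-flanking peaks, and 72 h for the downstream peak. Of the list entries, 9.19% at 24 h, 23.7% at 48 h, 14.1% at 72 h and 6.91% in untreated cells give a summit beyond their own end, so summit positions were not used.

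Raw counts in all consensus peaks summed to between 326944 and 765015 per library, and 21192 peaks, 89.7%, passed the filter on low counts, all 4 Vim peaks among them. In CPM, the count scaled by the library's total in tested peaks and its TMM factor, 1 count was worth between 1.32 and 3.14. Replicates of the untreated, 24 h and 72 h groups differed by no more than counting error, with a chi-square per degree of freedom of 0.931, 0.953 and 0.965, and those of 48 h differed slightly more (1.06). The level of a group is therefore given as its summed count, each pair counted as 1 sample, with an exact 95% Poisson interval that covers counting error only. P-values measure the spread between these libraries, which may be technical. The fit estimated that spread mostly from all tested peaks together, and little from each Vim peak's own replicates.

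The start-site peak carried the strongest signal of the 4, and its level dipped at 24 h. It held 113 and 119 CPM in the untreated libraries, 58.0 and 51.8 CPM at 24 h, 86.0 and 56.5 CPM at 48 h, and 99.4 and 87.8 CPM at 72 h. All 6 treated libraries were below both untreated ones, and the 24 h and 72 h pairs did not overlap. How many of all tested peaks separate in these ways was not counted. The 48 h libraries lay apart from each other, one near the 24 h level and one near that of 72 h. From the summed counts the level was 117 CPM (97 to 140) in untreated cells, and under eribulin it was 54.6 (42.7 to 68.7) by 24 h, 73.1 (59.4 to 89.1) by 48 h and 94.5 (73.8 to 119) by 72 h. The order from low to high was thus 24 h, 48 h, 72 h and untreated, and the intervals of neighbours in that order overlap.

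The end-flanking peak had less signal in every treated library than in either untreated one. It held 55.0 and 48.9 CPM in the untreated libraries, 30.7 and 32.7 CPM at 24 h, 25.1 and 23.9 CPM at 48 h, and 27.7 and 31.4 CPM at 72 h. Treated and untreated libraries did not overlap, a split not counted over all tested peaks. The 6 treated libraries lay between 23.9 and 32.7 CPM. The level from summed counts was 51.1 CPM (38.2 to 67.0) in untreated cells, and under eribulin it was 31.8 (22.9 to 43.0) by 24 h, 24.6 (16.95 to 34.6) by 48 h and 29.3 (18.4 to 44.3) by 72 h. With only 10 to 32 counts per library, the order among the 3 times is within counting error.

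The downstream peak, in contrast, had more signal in every treated library. It held 27.5 and 35.2 CPM in the untreated libraries, 42.6 and 45.02 CPM at 24 h, 41.0 and 37.6 CPM at 48 h, and 71.7 and 53.3 CPM at 72 h. Treated and untreated libraries did not overlap, again a split not counted over all tested peaks. Both 72 h libraries were above those of 24 and 48 h, which was likewise not counted over all tested peaks. The level from summed counts was 32.4 CPM (22.3 to 45.5) in untreated cells, and under eribulin it was 44.0 (33.4 to 56.8) by 24 h, 39.5 (29.6 to 51.7) by 48 h and 63.9 (47.1 to 84.7) by 72 h.

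The upstream peak was the weakest and the least settled, with 4 to 22 counts per library. It held 11 and 26.0 CPM in the untreated libraries, 13.6 and 30.0 CPM at 24 h, 15.9 and 23.9 CPM at 48 h, and 37.0 and 31.4 CPM at 72 h. The untreated, 24 h and 48 h libraries overlapped throughout. Only the 72 h pair stood above all the rest, a split not counted over all tested peaks. That margin was narrow: the lower 72 h library held 31.4 CPM from 10 counts, with 1 count worth 3.14 CPM, against 30.0 CPM at 24 h. Per kb of peak, the mean signal over the 8 libraries was 86.0 CPM for the start-site peak, 84.7 for the downstream, 68.0 for the upstream and 48.2 for the end-flanking peak. The median over all tested peaks was 98.7 CPM per kb, so all 4 were less dense than the typical peak, and the end-flanking peak was less dense than all but 2.33% of them. In total signal the start-site peak, with a mean of 83.9 CPM, was above 87.9% of the tested peaks.

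**Figure D2:**
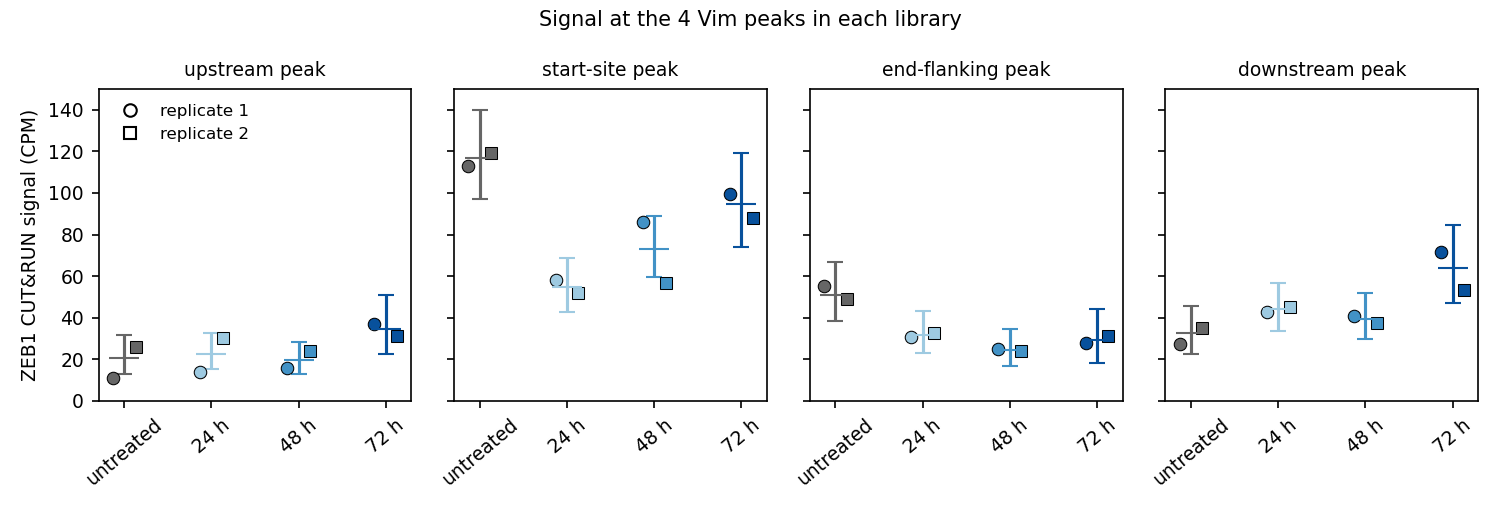
ZEB1 signal in CPM at each Vim peak, by group. Points are single libraries, and the dash and bar are the level from the summed counts of the pair with its exact 95% Poisson interval. The start-site peak dips at 24 h, the end-flanking peak stays low at all 3 times, and the upstream and downstream peaks are highest at 72 h.

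After 24 h against untreated cells, 1 of the 4 Vim peaks was called lower and none higher, where 4.61% of the 21192 tested peaks were called lower and 6.44% higher, 11.0% in all. P-values are from edgeR's quasi-likelihood test with Benjamini-Hochberg adjustment over all tested peaks. The start-site peak fell by 1.10 on the log2 scale (SE 0.213, 95% interval -1.52 to -0.67, adjusted p = 1.3e-04), a lower value than all but 2.4% of tested peaks. The other changes were -0.68 (SE 0.287, adjusted p = 0.119) at the end-flanking peak, 0.44 (SE 0.302, adjusted p = 0.379) at the downstream peak and 0.14 (SE 0.405, adjusted p = 0.866) at the upstream peak. Among gene boundary peaks (centre no more than 1 kb from either end of a protein-coding gene) 200 of 6027 were called lower at 24 h and 377 higher. DESeq2 gave the start-site peak a change of -1.09 and did not call it (adjusted p = 0.0915).

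After 48 h, 2 of the 4 peaks were called lower, against a background of 5.41% of tested peaks called lower and 6.09% higher, 11.5% in all. The end-flanking peak fell by 1.05 (SE 0.304, 95% interval -1.65 to -0.45, adjusted p = 0.0149) and the start-site peak by 0.68 (SE 0.198, 95% interval -1.07 to -0.28, adjusted p = 0.0149). The downstream peak (0.29, SE 0.308) and the upstream peak (-0.09, SE 0.419) did not pass, with adjusted p = 0.6 and 0.92. Without untreated replicate 2 the start-site change was -0.64 (adjusted p = 0.204), without the lower 48 h replicate, replicate 2, it was -0.44 (adjusted p = 0.205), and in DESeq2 it was -0.70 (adjusted p = 0.401). The end-flanking call was lost when either untreated or either 48 h library was left out, with adjusted p between 0.0645 and 0.112 and values between -1.17 and -0.98, and in both draws of thinned libraries (adjusted p = 0.103 and 0.149), and DESeq2 (-1.08) gave it no adjusted p.

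At 72 h the only Vim peak called against untreated cells was the downstream peak. This difference in calls does not show that the change moved from one peak to another. In edgeR's direct test of 72 h against the time before, no Vim peak was called. Adjusted p in that test was 0.885 at the end-flanking peak and 0.405 at the downstream peak. The end-flanking estimate against untreated cells was still low at 72 h, with a 95% interval of -1.48 to -0.12. The downstream peak rose by 0.97 (SE 0.313, 95% interval 0.35 to 1.59, adjusted p = 0.0282), and no Vim peak was called lower, where 6.84% of tested peaks were called higher and 5.74% lower, 12.6% in all. The start-site peak stood at -0.31 (SE 0.216, 95% interval -0.73 to 0.12, adjusted p = 0.361), the end-flanking peak at -0.80 (SE 0.342, adjusted p = 0.114) and the upstream peak at 0.74 (SE 0.418, adjusted p = 0.237). Gene boundary peaks had a median change of 0.37 at this time, and 857 of 6027 were called higher and 56 lower, so the start-site peak of Vim was below the median of its class. The downstream call was lost without either untreated library (adjusted p = 0.108 and 0.112, with 0.86 and 1.2) and without 72 h replicate 1 (0.363, with 0.71), in DESeq2 (0.327), and in both draws of thinned libraries (0.0756 and 0.129, with 1.01 and 0.81).

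For the mean of all 3 times, which sets 6 libraries against 2, the start-site peak changed by -0.69 (SE 0.168, adjusted p = 0.00188) and the end-flanking peak by -0.84 (SE 0.249, 95% interval -1.33 to -0.35, adjusted p = 0.0125). The downstream peak stood at 0.57 (SE 0.257, adjusted p = 0.121) and the upstream peak at 0.26 (SE 0.343, adjusted p = 0.636). These 2 calls compare with 8.53% of tested peaks called lower and 8.27% called higher, 16.8% in all. The 4 comparisons with untreated cells share the 2 untreated libraries. Without untreated replicate 2 neither was called, with adjusted p = 0.143 and 0.138, and DESeq2 called neither, with 0.179 and 0.278. The end-flanking call was also lost without untreated replicate 1 (0.0876) and in both draws of thinned libraries (0.053 and 0.145).

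**Figure D3:**
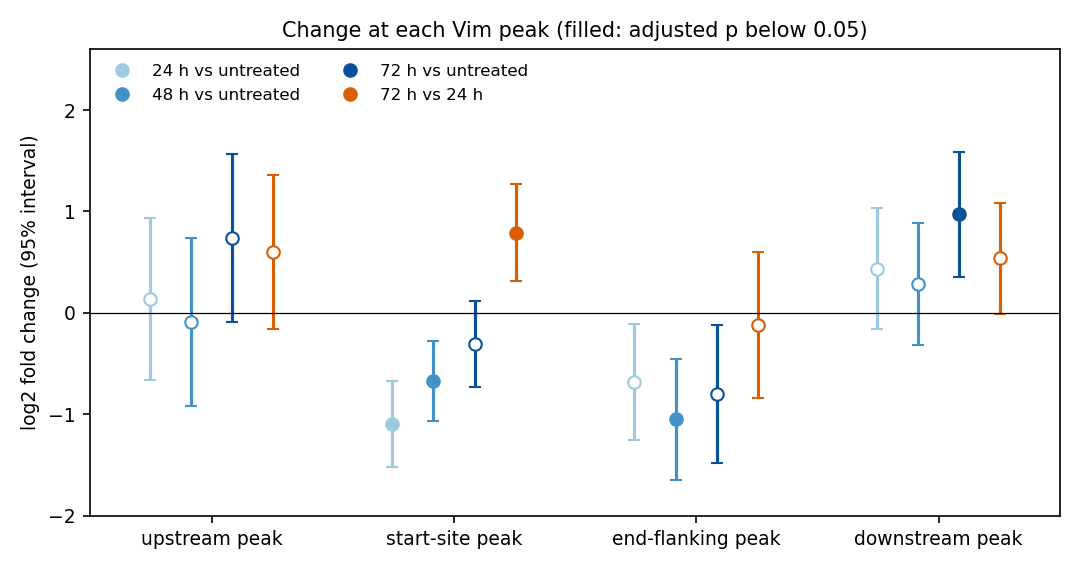
Log2 fold change with its 95% interval from the edgeR fit at each Vim peak, for 24, 48 and 72 h against untreated cells and for 72 h against 24 h, filled where the adjusted p is below 0.05. The start-site peak is lowest against untreated cells at 24 h and is higher at 72 h than at 24 h, while the end-flanking estimate lies below 0 in all of them.

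The direct comparison of 72 h with 24 h asks whether the start-site signal came back. The start-site peak rose by 0.79 on the log2 scale between these times (SE 0.243, 95% interval 0.31 to 1.27, adjusted p = 0.0408), with 99.4 and 87.8 CPM at 72 h against 58.0 and 51.8 CPM at 24 h, and it was the 1 Vim peak called, where 2.32% of tested peaks were called higher and 2.39% lower, 4.71% in all. Gene boundary peaks moved the same way in this comparison, with a median of 0.32 and 348 of 6027 called higher against 16 lower. The call at 24 h and this one share the 24 h libraries, so a low reading there enters both. The call was kept in 8 of 16 alternatives. It was lost with replicate pairs summed (0.77, adjusted p = 0.0638), in DESeq2 (0.78, adjusted p = 0.372), in both draws of libraries thinned to the smallest total (0.83 and 0.72, adjusted p = 0.102 and 0.184), and when any of the 4 libraries compared was left out (0.68 to 0.86, adjusted p between 0.1 and 0.305).

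None of the other Vim peaks was called between the times. From 24 to 72 h the downstream peak changed by 0.54 (95% interval -0.01 to 1.08), the upstream peak by 0.60 (-0.16 to 1.36) and the end-flanking peak by -0.12 (-0.84 to 0.60). In the separate steps, no Vim peak was called for 48 h against 24 h, where 0.755% of tested peaks were called (0.222% higher and 0.533% lower), or for 72 h against 48 h, where 0.0378% were (0.0283% higher and 0.00944% lower). The start-site peak moved by 0.42 (SE 0.224) in the first step and by 0.37 (SE 0.228) in the second. In edgeR's fit of the second step the upstream peak changed by 0.83 (SE 0.399, adjusted p = 0.502) and the downstream peak by 0.69 (SE 0.282, adjusted p = 0.405). DESeq2 called 0 peaks of the whole table in either step.

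The division of the Vim signal over the 4 peaks was not tested between groups. Intervals clear of the untreated one were those of the start-site share at 24 h and of the downstream share at 24 and 72 h. At 48 h both of these shares overlapped the untreated interval, as did the start-site share at 72 h. The start-site peak held 52.9% of the Vim counts in untreated cells (exact 95% interval 46.1 to 59.6) and 35.6% (29.0 to 42.7), 46.7% (39.8 to 53.7) and 42.5% (34.9 to 50.4) after 24, 48 and 72 h. The downstream peak held 14.7% (10.3 to 20) in untreated cells and 28.7% (22.6 to 35.5), 25.2% (19.5 to 31.7) and 28.7% (22.0 to 36.2) after 24, 48 and 72 h. By library the downstream share lay between 24.4 and 30.4% in the 6 treated libraries, against 13.3 and 15.3% in the untreated ones. Treated and untreated libraries thus did not overlap, and how often this happens at other genes was not counted. These shares do not depend on library scaling, and the same counts underlie the fold changes above. The 4 peaks together held 0.0201 and 0.0223% of a library in untreated cells and 0.0141 and 0.0157%, 0.0166 and 0.0140%, and 0.0231 and 0.0199% after 24, 48 and 72 h, so the 72 h libraries overlapped the untreated ones and those of 24 and 48 h lay below both. This split was not counted at other genes either.

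**Figure D4:**
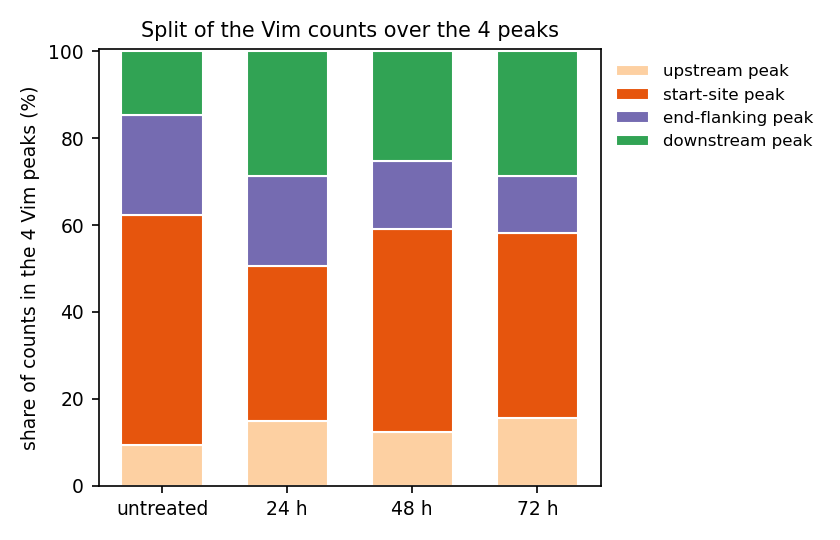
Share of the counts in the 4 Vim peaks that falls in each, in percent, for the summed libraries of each group. The downstream share is 14.7% in untreated cells and between 25.2 and 28.7% after eribulin, and the start-site share is lowest, at 35.6%, at 24 h.

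Across the 8 libraries the 4 peaks fell into 2 pairs by their log2 CPM, given as a description since the libraries share groups and depth. The start-site and end-flanking peaks had a Pearson r of 0.60, and the upstream and downstream peaks 0.74. Between the pairs, r lay between -0.59 and -0.05.

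Vim has close neighbours on its 5′ side and none for a long stretch on the other. The nearest peak outside the set, at 13558344 to 13558996, lies 13.1 kb before the upstream peak. It overlaps the boundary of the long noncoding RNA gene Gm9875, at 13558903. Its nearest protein-coding gene is Trdmt1, the gene of a transfer RNA methyltransferase, 13.9 kb away. This peak held 124 and 153 CPM in untreated cells, 104 and 80.5 CPM at 24 h, 104 and 87.3 CPM at 48 h, and 97.1 and 122 CPM at 72 h. Like the start-site peak of Vim, it was lower in every treated library than in either untreated one. It fell by 0.64 (SE 0.181, adjusted p = 0.0112) at 24 h and by 0.55 (adjusted p = 0.0288) at 48 h and was not called at 72 h (-0.40, adjusted p = 0.179). Beside it, the peak at 13557248 to 13557979 fell at all 3 times, by 0.78, 0.73 and 0.63 (adjusted p = 0.00204, 0.0042 and 0.035). On the other side the next peak is 132 kb beyond the downstream peak, inside the sialyltransferase gene St8sia6, and its change at the 3 times, between -0.05 and 0.27, was not called.

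Lower calls were also found at genes around Vim. Of 20 tested peaks of genes on this stretch of chromosome 2 and farther along it (Cubn, Trdmt1, St8sia6, Hacd1, Stam and Mrc1), 9 were called lower over the mean of the 3 times and none higher, with a median of -0.54 against -0.01 for all tested peaks, beside the background of 8.53% lower. Most of the 20 belonged to genes before Vim, 11 to Cubn and 5 to Trdmt1, and the other genes had 1 each. The St8sia6 peak, beyond Vim, was not called (0.06). With 1 peak taken per gene, the largest called falls were inside Cubn, the gene of the vitamin B12 uptake receptor cubilin, at 13298897 to 13299411 (-1.23, SE 0.244, adjusted p = 1.16e-04), and near Trdmt1 at 13500348 to 13500712 (-0.80, SE 0.23, adjusted p = 0.00866). The Cubn peak held 34.1 and 45.02 CPM at 24 h, 27.8 and 17.1 CPM at 48 h and 13.9 and 31.4 CPM at 72 h, against 68.8 and 61.2 CPM in untreated cells. The count of 9 became 5 without untreated replicate 1, 3 without untreated replicate 2 and 1 in DESeq2. Not all neighbours were lower: the peak at the boundary of Trdmt1, 13544308 to 13544594, stood at 1.06 at 72 h (adjusted p = 0.0626).

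**Figure D5:**
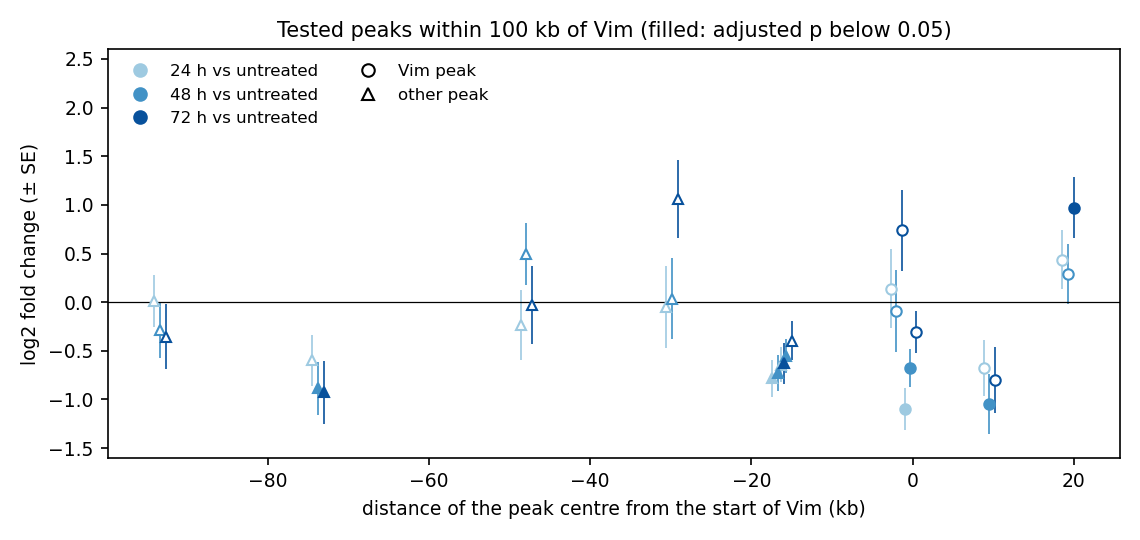
Log2 fold change (± SE) of the tested peaks within 100 kb of Vim, by the distance of the peak centre from the start of Vim, for 24, 48 and 72 h against untreated cells, filled where the adjusted p is below 0.05. The start-site peak and the nearest peaks assigned to Trdmt1 lie below 0. The downstream peak lies above 0 and is called at 72 h, and no consensus peak lies between it and the right end of the window.

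The peaks whose pattern was most like that of the start-site peak were sought among 8292 peaks of other protein-coding genes with at least the median CPM, by Pearson r of log2 CPM over the 8 libraries. The 5 highest were a peak inside Hnrnpul1, a gene for an RNA-binding nuclear protein (r = 0.984), the boundary of the proteasome subunit gene Psmd3 (0.971), a peak inside the actin-associated Synpo (0.969), the boundary of Cyth2, a gene for an exchange factor of ARF GTPases (0.966), and the boundary of the chaperonin subunit gene Cct6a (0.965). The median r over all compared peaks was 0.02. The Hnrnpul1 peak held 110 and 112 CPM in untreated cells, 68.2 and 66.8 CPM at 24 h, 90.0 and 73.6 CPM at 48 h and 102 and 100.4 CPM at 72 h. Its likeness to the start-site peak, lowest at 24 h, is what it was picked for. The named peaks are the 5 highest of 8292 values over 8 libraries and are named for their pattern alone. Over the 4 group means other genes ranked first, among them Tmod3 (r over the 8 libraries 0.961).

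Other intermediate filament genes had called peaks in both directions. Of the 19 genes listed 8 had a consensus peak, with 26 tested peaks, of which 7 were called lower and 1 higher over the mean of the 3 times, with a median of -0.23, beside the background of 8.53% lower and 8.27% higher. A peak near Krt18, an epithelial keratin that vimentin replaces in the transition, fell (-0.98, SE 0.157, adjusted p = 1.64e-06), as did one 49.3 kb from the neurofilament gene Nefl (-0.87, SE 0.235, adjusted p = 0.00548). The boundary of the nuclear lamina gene Lmnb2 rose (2.03, SE 0.531, adjusted p = 0.00393), from few counts, with 22.2 and 30.0 CPM at 24 h against 11 and 1.53 CPM in untreated cells. The genes of desmin (Des), GFAP (Gfap) and peripherin (Prph), the closest relatives of vimentin, had no consensus peak. The count of 7 became 4 without either untreated library and 2 in DESeq2.

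Genes that link or phosphorylate vimentin filaments had 67 tested peaks, of which 10 were called higher and 6 lower over the mean of the 3 times, with a median of 0.15 against -0.01 for all tested peaks. Of all tested peaks 8.27% were called higher and 8.53% lower, and the count of lower peaks in this list is near that background. The boundary of the kinase gene Pak1 rose (1.43, SE 0.283, adjusted p = 1.12e-04), with 56.3 and 64.1 CPM at 24 h, 68.8 and 66.7 CPM at 48 h and 39.3 and 62.7 CPM at 72 h, against 27.5 and 18.3 CPM in untreated cells. A peak inside the cytolinker gene Dst rose (1.68, SE 0.47, adjusted p = 0.00733), from few counts, with 8.25 and 6.1 CPM in untreated cells. A peak inside the kinase gene Rock2 fell (-0.91, SE 0.291, adjusted p = 0.0207). The count of 6 lower became 4 without untreated replicate 1, 1 without untreated replicate 2 and 0 in DESeq2.

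Among the other mesenchymal genes 11 of 85 tested peaks were called lower and 1 higher over the mean of the 3 times, with a median of -0.18 against -0.01 for all tested peaks, beside the background of 8.53% lower and 8.27% higher. A peak 15.0 kb from the adhesion receptor gene Cd44 (-1.89, SE 0.532, adjusted p = 0.00776) and one 7.7 kb from Snai1, a repressor of E-cadherin, (-1.77, SE 0.466, adjusted p = 0.00423) fell. Both falls came from few counts, with 22 and 18.3 CPM (Cd44) and 27.5 and 19.9 CPM (Snai1) in untreated cells. The boundary of Snai2, a relative of Snai1, rose (0.70, SE 0.253, adjusted p = 0.0435). None of the 11 falls was called without untreated replicate 2 or in DESeq2, and 4 peaks were called lower without untreated replicate 1. For setting, the peak with the highest count of the E-cadherin gene Cdh1 stood at 0.07 (adjusted p = 0.826) and that of Zeb1 itself at -0.40 (adjusted p = 0.115).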

How the data were processed

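ZEB1 CUT&RUN libraries (8, in 4 groups of 2) and 1 IgG library were sequenced paired-end at 76 bp, per the labels' protocols. The deposited table holds raw counts per consensus peak with no scaling, and all its columns were mapped to samples by name. The authors' peak lists give a fold ratio over IgG and the −log10 of q for each peak, and their names read replicate 1 against IgG. The submitters' processing notes name Bowtie2 2.2.6, MACS2 2.1.1, bedtools 2.30.0 and featureCounts on GRCm38 (mm10), without settings.

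The main test used edgeR 4.0.16 (R 4.3.3) on these counts: filterByExpr by group, TMM, and a robust quasi-likelihood fit with 1 mean per group over all 8 libraries (4 residual degrees of freedom). F-tests gave 7 comparisons, adjusted by Benjamini-Hochberg over all 21192 tested peaks, with calls at an adjusted p below 0.05. The SE is the log2 fold change divided by the square root of F. With the spread shared over peaks, the 95% intervals of the Vim peaks used 125.6 degrees of freedom. DESeq2 1.42.0 and the other alternatives are described under the dependence on processing. The test was run on simulated counts with 4-fold changes planted at peaks of at least the median level. Smaller changes, such as those at the Vim peaks, and changes at weaker peaks were not simulated. Without added control DNA, each change is measured against the rest of that library's peaks.

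Genes and promoter sequences came from RefSeq for GRCm38.p6, and 78 of 79 listed gene symbols matched (Ptpla, an older name of Hacd1, did not). A peak belongs to a gene when its centre lies inside it or the gene's boundary is its nearest within 50 kb. The members, lists and rules were chosen with earlier results of these data known. The rule for named peaks took all Vim peaks, the nearest peak on each side, the 5 most like the start-site peak (prior count 2), for each list the called peaks with the largest changes over the mean of the 3 times (up to 2 per direction, 1 per gene), and the peaks of Cdh1 and Zeb1 with the highest count. One peak that this rule names is not reported here. Coverage tracks were not analysed here.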

Additional observations from a re-analysis of the deposited data

Results flagged for a closer look

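The start-site peak of Vim stood 0.79 higher on the log2 scale at 72 h than at 24 h, and it was the only Vim peak called by edgeR's quasi-likelihood test in the 3 comparisons between times. The gene was proposed with the low 24 h level of this peak already known, and the same 24 h libraries are one arm of the comparison, so the call is a description and no independent evidence of a return. It was kept in 8 of 16 alternatives. These changed the scaling, the filter or the replicate block, or left out a library that is not part of this comparison. The call was lost in all that left out a compared library, thinned the libraries, summed the pairs or used DESeq2.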

How the results depend on the processing

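Of 431 values from the alternatives for the 4 Vim peaks in 7 comparisons, 387 kept direction and call, 33 lost a call and 11 uncalled ones changed sign. Most of the 387 belong to results that were not called in the main fit and stayed uncalled. The 33 all fell on the few results that were called. A further 17 values have no adjusted p, 10 of them in DESeq2 and 7 at the upstream peak, which fell below the count filter in a second draw of the thinned libraries. That draw, the list counts without an untreated library and those in DESeq2 were chosen after seeing the data. The start-site fall at 24 h kept its call in 15 of 16 alternatives, DESeq2 being the exception (values -1.17 to -0.94). With all libraries thinned to the smallest total, its fall at 48 h was called in the first draw (-0.85) and not in the second (-0.45, adjusted p = 0.361). Its change over the mean was likewise called in the first (-0.78) and not in the second (-0.53), so these values turn on the draw. The other 4 calls at Vim peaks were lost in both draws: the start-site rise for 72 h against 24 h, the end-flanking falls at 48 h and over the mean, and the downstream rise at 72 h. The start-site call for 72 h against 24 h was kept in 8 of 16 alternatives (values 0.68 to 0.86). Its fall was kept in 12 of 16 at 48 h and in 13 of 16 over the mean. The end-flanking fall was kept in 9 of 15 at 48 h and in 11 of 16 over the mean, and the downstream rise at 72 h in 10 of 16.

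Counts of called peaks moved most in DESeq2, to 86, 76, 112 and 227 for 24, 48, 72 h and the mean against untreated cells, and to 0, 0 and 6 for 48 h against 24 h, 72 h against 48 h and 72 h against 24 h. In the same order the thinned libraries gave 799, 728, 1451, 1611, 17, 3 and 446 in the first draw and 714, 675, 1377, 1471, 10, 1 and 394 in the second. Summed replicate pairs gave 98, 3 and 657 for the last 3. With 1 library left out the counts ranged from 479 to 2450, 493 to 2550, 684 to 2794, 625 to 3426, 6 to 229, 0 to 10 and 216 to 1128, lowest without untreated replicate 2 for the 4 comparisons with untreated cells.

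At the upstream peak, with 4 to 22 counts a library, leaving out 1 library gave -0.598 to 1.025 for 24 h, -0.418 to 0.792 for 48 h and -0.066 to 1.147 for the mean against untreated cells, and -0.624 to 0.494 for 48 h against 24 h; among these were -0.191 at 24 h, 0.213 at 48 h and 0.074 for 48 h against 24 h. Same-numbered libraries did not deviate together (correlations -0.03 to 0.001). Replicates differed by about counting error, so these correlations cannot tell whether the numbers pair libraries. The replicate block gave 2262 calls at 24 h and turned the upstream peak at 48 h to 0.034. Thinning turned the end-flanking peak to 0.062 for 72 h against 24 h in the first draw, and the downstream peak to -0.133 for 24 h against untreated cells and 0.375 for 48 h against 24 h in the second. With list peaks kept at a −log10 q of 5 or more, the upstream peak was in 1 list and the end-flanking peak in 2. The causes were not tested.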
